A study of Mus musculus with 24 samples.

Results

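The 37 genes described here encode the main molecular chaperones and their regulators in 3 compartments of the mouse spinal cord cell: 21 act in or on the endoplasmic reticulum (ER), 11 in the cytosol and 5 in mitochondria. They were chosen by name, as the genes of the ER unfolded protein response, the cytosolic heat shock response and the mitochondrial chaperones. No measured value entered the rule, but earlier results of these data were known when the list was made. All 37 symbols matched 1 gene each among the 38924 genes listed, and all 37 passed the filter on low counts that left 17409 genes for testing. The study measured polyadenylated RNA of the whole spinal cord in 24 libraries from 8-week-old mice of the background B6J;CASTxB6.129. The genotypes combine 3 states of Gcn2 (gene symbol Eif2ak4) with 2 of Gars. The mutant allele is GarsP278KY, carried in 1 copy over a wild-type copy in every mutant mouse, and Gars+/+ mice carried none. The groups were Gcn2+/+;Gars+/+ (4 libraries), Gcn2+/+;Gars mutant (4), Gcn2-/-;Gars+/+ (3), Gcn2-/-;Gars mutant (5), Gcn2+/-;Gars+/+ (4) and Gcn2+/-;Gars mutant (4), with 13 male and 11 female libraries in all. The labels name no tissue-specific driver for either allele and no treatment. The labels do not say in words that each library is a separate animal, so p-values measure the spread between these libraries.

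Gcn2 is a kinase that senses uncharged tRNA and phosphorylates the translation factor eIF2, which favours translation of the transcription factor ATF4. Gars encodes the glycyl-tRNA synthetase, and dominant mutations in it cause a hereditary motor and sensory neuropathy. The unfolded protein response of the ER also has an eIF2 kinase, PERK, beside its 2 other sensors, the nuclease IRE1 (gene Ern1), which splices the Xbp1 mRNA, and the membrane-bound factor ATF6. Together they raise the transcription of ER chaperones, disulfide enzymes and parts of ER-associated degradation, the route by which misfolded ER proteins are sent back to the cytosol for destruction. In the cytosol the heat shock factor HSF1 raises inducible Hsp70 genes and their partners when misfolded proteins accumulate, while neurons and glia hold large constitutive pools of Hsc70 and Hsp90.

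The sequences that tie these genes to the stress pathways are short elements just before their start sites. RefSeq promoters of the build GRCm38.p6 were found for 29 of the 37 genes, and the 250 bases before each start were searched on both strands. None was found for Manf, Hyou1, Atf6, Hspa8, Hsp90aa1, Hsp90ab1, Hspa9 and Hsf1, which were not searched. The ER stress response element, which is CCAAT, 9 bases of any kind, then CCACG, stood before 8 of the 29 genes, against 0.113% of all 32851 promoters. Its variant, ER stress response element II, stood before Herpud1 alone among the members searched, and before 0.03% of all promoters. Herpud1 was also the only one of the 29 with TGATGNAA, the composite element that ATF4 binds with a partner, which is present in 3.452% of all promoters. A heat shock element of 3 units stood in the stretch shared by the divergent pair Hspd1 and Hspe1, against 0.466% of all promoters. The windows of both genes that hold it lie wholly within GENCODE exons. The window before another Hspd1 start, chr1:55088244-55088493, holds no such element. TGACGTGG, the unfolded protein response element, was before none of the 29 and before 0.563% of all promoters. The elements follow on the strand that reads them forward, with the fixed bases in capitals, because they sort the members that are compared later.
Hspa5, chr2:34772020-34772048, + strand: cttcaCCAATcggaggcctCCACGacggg
Hsp90b1, chr10:86705528-86705556, + strand: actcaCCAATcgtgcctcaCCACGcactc
Hsp90b1, chr10:86705633-86705661, - strand: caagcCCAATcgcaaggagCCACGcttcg
Calr, chr8:84847070-84847098, + strand: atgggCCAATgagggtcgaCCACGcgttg
Canx, chr11:50325795-50325823, - strand: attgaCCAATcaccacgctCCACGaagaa
Creld2, chr15:88819515-88819543, - strand: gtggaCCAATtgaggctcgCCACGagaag
Dnajc3, chr14:118937822-118937850, + strand: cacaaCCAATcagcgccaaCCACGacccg
Pdia6, chr12:17266486-17266514, + strand: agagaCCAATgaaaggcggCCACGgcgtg
Syvn1, chr19:6046527-6046555, + strand: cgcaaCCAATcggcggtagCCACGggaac
Herpud1, ER stress response element II, chr8:94386372-94386392, + strand: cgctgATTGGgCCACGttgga
Herpud1, ATF4 composite element, chr8:94386312-94386329, - strand: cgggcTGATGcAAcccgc
Hspe1, heat shock element, chr1:55088054-55088076, + strand: gtccgTTCtaGAAccTTCcggaa
The Hspa5 element lies 65 to 47 bases before the RefSeq start, and the pair before Hsp90b1 lies 212 to 194 and 107 to 89 bases before its RefSeq start. Of the Hspa5 window, 120 bases lie in GENCODE exons. GENCODE places the Hspa5 gene start at chr2:34771970, so by that annotation the element lies within the gene. A match gives the letters only, and no match says only that these letters are not in this window.

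Herpud1 is shown with its whole window, since it carries both an ER stress element and an ATF4 element and is the member whose Gars comparison is treated at length below. The 250 bases are chr8:94386179-94386428 on the + strand, overlap no GENCODE exon, and have the ATF4 composite element (here on the opposite strand) and the ER stress response element II in capitals.
Herpud1 promoter: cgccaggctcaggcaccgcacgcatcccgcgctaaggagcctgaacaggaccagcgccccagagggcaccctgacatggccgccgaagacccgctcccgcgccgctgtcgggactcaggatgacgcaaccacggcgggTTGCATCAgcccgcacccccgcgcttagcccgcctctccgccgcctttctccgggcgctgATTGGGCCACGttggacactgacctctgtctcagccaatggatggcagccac

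The libraries held 19.7 to 32.4 M (mega) estimated reads each. Eif2ak4, the targeted gene, was read at 28.9 to 34.4 CPM (counts-per-million, read counts scaled to a common library size) in the 8 Gcn2+/+ libraries, at 20.4 to 23.6 CPM in the 8 Gcn2+/- and at 11.4 to 15.01 CPM in the 8 Gcn2-/-, so the 3 sets did not overlap. Gars stood at 132 to 154 CPM throughout, and its level does not check the mutant allele. Posterior Hox genes of the spinal cord summed to 348 to 435 CPM and forebrain genes to 4.12 to 6.98 CPM. Summed Schwann cell and nerve root markers were 124 CPM in the lowest library and reached 3082 CPM in a Gcn2+/+;Gars mutant library and 2660 CPM in a Gcn2+/-;Gars+/+ library. In whole tissue, fewer cells of a type and less RNA per cell cannot be told apart. Each title begins with a number that the labels do not explain. There are 8 such numbers over the 24 libraries, unevenly spread over the genotypes, and the 5 libraries whose titles begin with 24906 stood apart in many members, as described below. These were 1 Gcn2+/+;Gars+/+, 1 Gcn2-/-;Gars+/+, 2 Gcn2-/-;Gars mutant and 1 Gcn2+/-;Gars+/+ library. Neither the Gcn2+/+;Gars mutant nor the Gcn2+/-;Gars mutant group holds a library of that number.

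The constitutive cytosolic chaperones were the most abundant members. In TPM (transcripts-per-million), a level per length by which genes can be compared, Hspa8, the constitutive Hsc70, stood at 1584 ± 116 TPM (SD, n = 4) in the Gcn2+/+;Gars+/+ libraries, which places it at rank 34 of all genes. The cytosolic Hsp90 genes followed, Hsp90ab1 at 1165 ± 106 TPM and Hsp90aa1 at 1111 ± 163 TPM, whose order does not hold beyond their spread. Chaperones of the ER came next, the lectin Calr at 354.9 ± 15.5 TPM, the ER Hsp90, Hsp90b1, at 308.9 ± 23.9 TPM and the lectin Canx at 302.9 ± 2.4 TPM. Hsp90b1 and Canx do not differ beyond their spread. Hspa5, the ER Hsp70 known as BiP, was at 272.3 ± 72.2 TPM, a spread too wide to place it below Canx or Hsp90b1. The mitochondrial chaperonin subunit Hspd1 stood at 196.5 ± 7.81 TPM, its partner Hspe1 at 158.8 ± 11.7 TPM and the mitochondrial Hsp70, Hspa9, at 159.4 ± 2.28 TPM. The 5 lowest members were Creld2 at 15.9 ± 3.75 TPM, Hspa1b at 12.25 ± 14.9 TPM, Edem1 at 10.98 ± 1.51 TPM, Hspa1a at 10.71 ± 7.94 TPM and Ern1 at 5.115 ± 0.598 TPM. Neighbours among the first 4 of these do not differ beyond their spread.

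The members differed widely in how much they varied over the 24 libraries. The highest library exceeded the lowest by 39.6 times for Hspa1b and 12.7 times for Hspa1a, the inducible Hsp70 pair. The ratio was 4.07 for the small heat shock protein gene Hspb1, 3.2 for Sdf2l1, a partner of ER J proteins, 2.98 for the cytosolic J protein gene Dnajb1 and 2.9 for Hspa5. At the other end it was 1.22 for Atf6 and Hspa9 and 1.23 for Canx. Hspa1a and Hspa1b share over 50% of their 75-base windows with each other (52.68% of Hspa1a with Hspa1b, 55.84% of Hspa1b with Hspa1a), so their separate values are uncertain and their sum is given too. Transcripts of other genes share 46.41% of the windows of Hspb1, 42.77% of Hsp90aa1, 32.79% of Hspa8 and 29.57% of Hspd1. Those levels depend on how the authors' counting split shared reads. For Hspa5, Sdf2l1, Pdia4, Herpud1, Dnajb1 and most other members no window was shared.

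**Figure D1:**
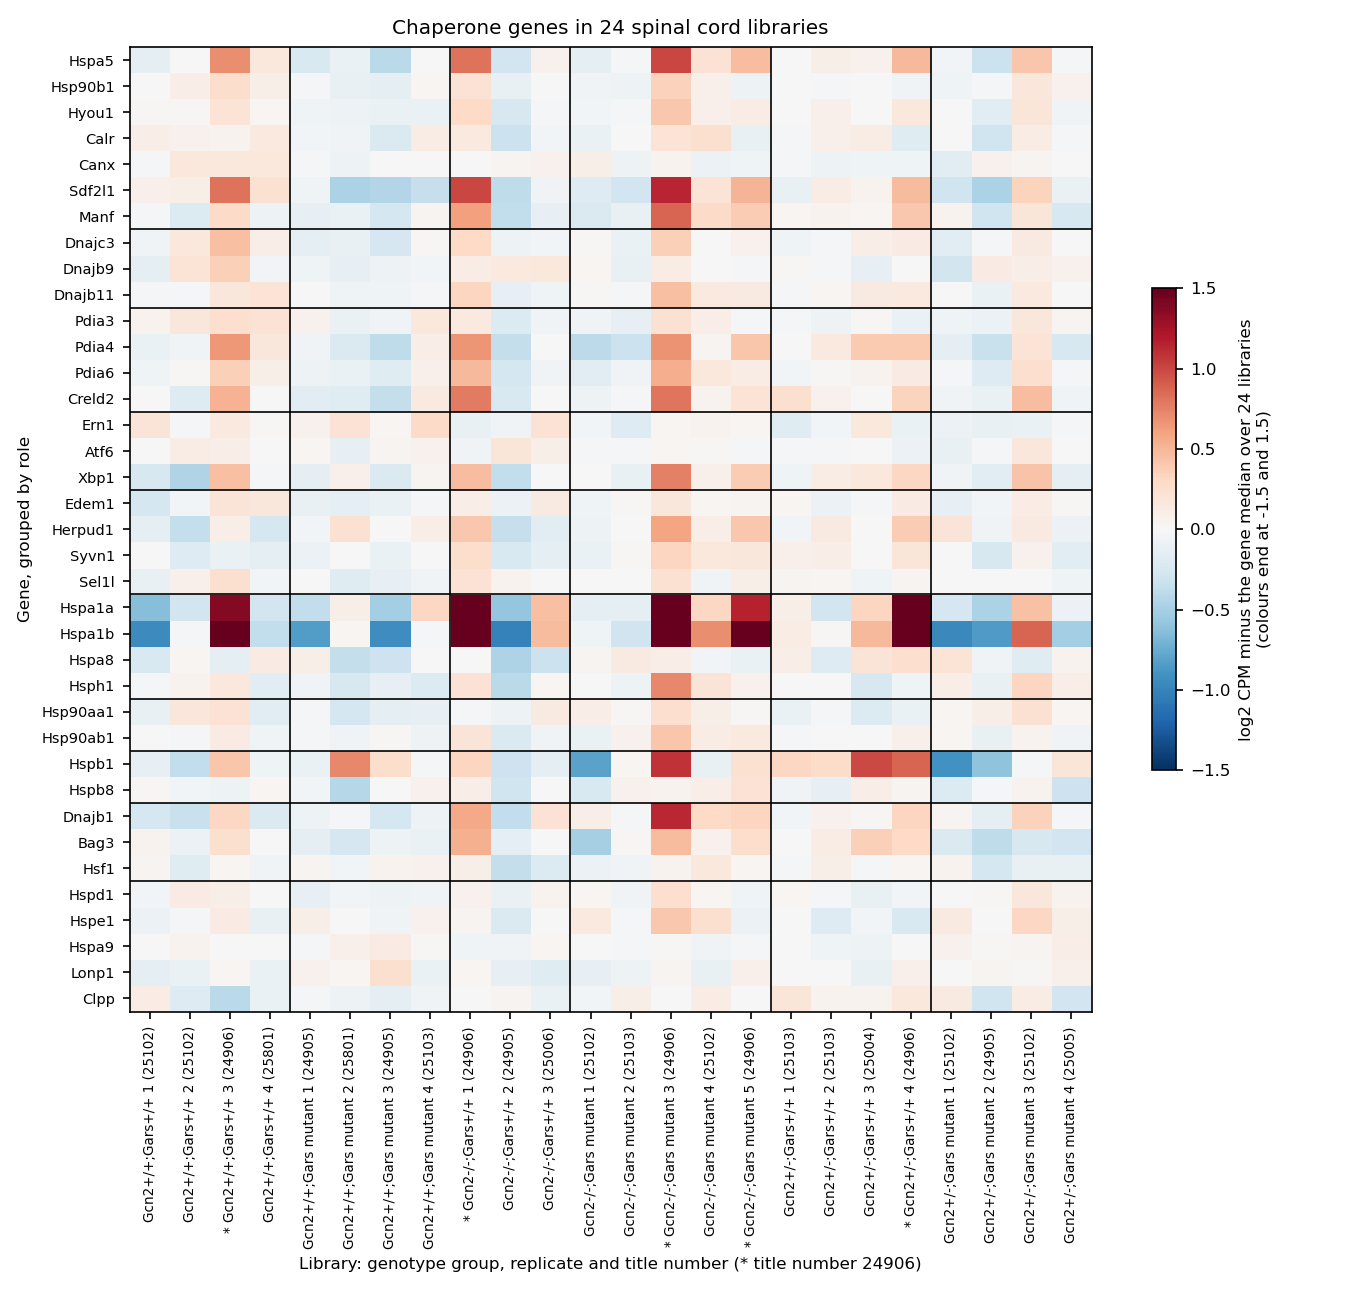
Each row is a member, grouped by role, and each column a library in order of genotype group, replicate and title number. Colour is log2 CPM minus the gene's median over the 24 libraries. The columns marked with an asterisk (title number 24906) are red for many ER genes and for Hspa1a and Hspa1b in 4 genotype groups, while Atf6, Canx and Hspa9 show no such columns.

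The mutant Gars allele was first compared with wild-type Gars in Gcn2+/+ mice, which asks whether the neuropathy allele alone moves these genes in the cord. None of the 37 members was called at an adjusted p under 0.05 (edgeR quasi-likelihood F test with sex in the fit, Benjamini-Hochberg over 17409 genes), against 0.632% of all genes (110 genes). At an unadjusted p under 0.05 there were 2 members of 37, against 17.3% of all genes, and DESeq2 called no member either. The members' log2 changes leaned below 0, with 27 of 37 below it and a median of -0.12, against 47.3% of all genes below 0 and a median of 0.01. With the title number as a block the median was 0.03 with 16 below 0, and with the 5 libraries of number 24906 left out it was -0.10 with 26 below 0.

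Canx, the ER lectin chaperone that holds glycoproteins, had the smallest p. It was read at 512, 585, 584 and 586 CPM in the Gcn2+/+;Gars+/+ libraries and at 512, 495, 524 and 526 CPM in the Gcn2+/+;Gars mutant libraries. All but 1 of the wild-type libraries lay above all mutant ones. The log2 change was -0.14 ± 0.058 (SE; edgeR adjusted p = 0.206). Dnajc3, an ER J protein that also inhibits eIF2 kinases, was read at 93.0, 108, 132 and 104 CPM in the wild-type and 87.6, 89.4, 81.1 and 98.1 CPM in the mutant libraries. Its groups overlapped in 1 library each, and its log2 change was -0.28 ± 0.114 (edgeR adjusted p = 0.208). Sdf2l1 was read at 10.6, 10.8, 17.7 and 11.8 CPM against 9.62, 7.24, 7.47 and 7.93 CPM. All 4 mutant libraries were below all 4 wild-type libraries, of which that of title number 24906 (17.7 CPM) was far above the rest. The log2 change of Sdf2l1 was -0.62 ± 0.318 (edgeR adjusted p = 0.323), with a 95% interval of -1.29 to 0.05. The remaining member named by p, the ER J protein gene Dnajb9, stood at 43.7, 55.6, 61.5 and 46.6 CPM against 46.1, 44.1, 45.7 and 46.9 CPM. Its mutant libraries sat within the wild-type range, and its log2 change was -0.18 ± 0.0956 (edgeR adjusted p = 0.329).

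Without Gcn2, mutant and wild-type Gars did not separate the members either. No member was called, against 0.0115% of all genes (2 genes), and 1 member had an unadjusted p under 0.05, against 4.35% of all genes. That member was Hspa8, read at 1929, 1398 and 1542 CPM in Gcn2-/-;Gars+/+ and at 1984, 2127, 2072, 1879.7 and 1799 CPM in Gcn2-/-;Gars mutant libraries. The Gcn2-/-;Gars+/+ library of title number 24906 reached the mutant range and the other 2 lay below it. The log2 change of Hspa8 was 0.26 ± 0.1225 (edgeR adjusted p = 0.941). Hspe1, at 50.5, 42.3 and 49.3 against 54.4, 48.8, 65.3, 58.3 and 46.5 CPM, had a log2 change of 0.19 ± 0.0958 (edgeR adjusted p = 0.941). Hsf1, the heat shock factor itself, was at 23.3, 16.98 and 18.97 against 20.6, 21.01, 22.7, 24.4 and 22.2 CPM, a log2 change of 0.16 ± 0.0885 at the same adjusted p. Hsp90ab1 was at 1649, 1247 and 1391 against 1350.2, 1512, 1923, 1559 and 1596 CPM, a log2 change of 0.14 ± 0.0879 at the same adjusted p. In each of these 3 genes the groups overlapped. The member median was 0.07 with 27 of 37 above 0, 0.02 with 24 above 0 under the title number block, and 0.17 with 31 above 0 without the 5 libraries of number 24906.

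With 1 copy of Gcn2, the Gars comparison again called no member, against 0.178% of all genes (31 genes), with 5 members at an unadjusted p under 0.05 against 14.7% of all genes. Bag3, a partner of Hsp70 in autophagy of misfolded proteins, was at 39.4, 42.6, 50.4 and 48.4 CPM in Gcn2+/-;Gars+/+ and at 33.9, 30.2, 33.4 and 32.2 CPM in Gcn2+/-;Gars mutant libraries. The groups did not overlap, and the log2 change was -0.47 ± 0.1576 (edgeR adjusted p = 0.224). Hspb1, at 20.9, 20.4, 33.4 and 30.8 against 8.98, 11.1, 16.4 and 19.1 CPM, did not overlap either, with a log2 change of -0.97 ± 0.3363 (edgeR adjusted p = 0.233). Schwann cell markers summed to 148 to 2660 CPM in the former group and to 124 to 398 CPM in the latter, and with a Schwann marker score in the fit no member was called either. Hspe1, at 49.2, 43.2, 47.8 and 42.0 against 54.1, 49.5, 61.0 and 52.3 CPM, lay higher in every mutant library, with a log2 change of 0.27 ± 0.093 (edgeR adjusted p = 0.225). Hsp90aa1 was at 1366, 1456, 1271 and 1369.9 against 1494, 1559, 1719.6 and 1499 CPM, likewise higher in all 4 mutant libraries, with a log2 change of 0.21 ± 0.0816 (edgeR adjusted p = 0.262). The lean of the members turned with the title number: the median was -0.06 with 26 of 37 below 0, but 0.07 with 29 above 0 under the title number block. No title number holds libraries of both groups, so values under the block compare them only through libraries of other genotypes. Without the 5 libraries of number 24906 the median was -0.06 with 25 below 0. Under the block the log2 change of Bag3 was -0.17 ± 0.1644 and that of Hspb1 -0.58 ± 0.3557, against -0.48 ± 0.1183 and -1.12 ± 0.2528 without those 5 libraries. None of these passed in edgeR (adjusted p = 0.867 and 0.81 under the block, 0.207 and 0.184 without the libraries).

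Loss of Gcn2 was compared within each Gars genotype. In wild-type Gars mice no member was called, against 0.0287% of all genes (5 genes), and 1 member had an unadjusted p under 0.05, against 3.68% of all genes. That was Pdia3, a disulfide isomerase that works with Calr and Canx, at 217, 235, 249 and 243 CPM in Gcn2+/+ and 232, 181 and 202 CPM in Gcn2-/- libraries. Its log2 change was -0.20 ± 0.0917 (edgeR adjusted p = 1.0), and the groups overlapped through the Gcn2-/- library of title number 24906. The member median was -0.01, -0.02 under the title number block and -0.12, with 30 of 37 below 0, without the 5 libraries of number 24906. In Gars mutant mice no member was called either, against 0.494% of all genes (86 genes). There 6 members had an unadjusted p under 0.05, against 10% of all genes, and 33 of 37 log2 changes were above 0 with a median of 0.15, against 49.3% of all genes and a median of -0.00. Of the 5 Gcn2-/-;Gars mutant libraries, 2 were of title number 24906, and none of the 4 Gcn2+/+;Gars mutant libraries was.

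Hsp90aa1 had the smallest p in that comparison. It was at 1443, 1226, 1334 and 1354 CPM in Gcn2+/+;Gars mutant and at 1571, 1487, 1753, 1567 and 1483 CPM in Gcn2-/-;Gars mutant libraries, the latter above all of the former. The log2 change was 0.21 ± 0.0785 (edgeR adjusted p = 0.344). Hsph1, the cytosolic Hsp110 that recharges Hsp70, was at 341, 299, 323 and 306 CPM against 354, 335, 579, 405 and 369 CPM. The library at 579 CPM, of title number 24906, stood far above the other 8, and the log2 change was 0.33 ± 0.14 (edgeR adjusted p = 0.416). Dnajb1 was at 45.1, 46.8, 39.5 and 44.9 CPM against 50.7, 46.5, 104.5, 58.3 and 59.5 CPM. All but 1 of the Gcn2-/- libraries exceeded the Gcn2+/+ range, and the log2 change was 0.51 ± 0.2167 (edgeR adjusted p = 0.419). For Sdf2l1, at 9.62, 7.24, 7.47 and 7.93 against 8.83, 8.27, 22.3, 11.7 and 14.4 CPM, the log2 change was 0.67 ± 0.2976 (edgeR adjusted p = 0.442). Its 2 highest libraries were both of title number 24906.

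With 1 copy of Gcn2 in place of 2, no gene at all was called in wild-type Gars mice (0.0% of all genes). There 3 members had an unadjusted p under 0.05, against 17.2% of all genes. Canx, at 518, 496, 502 and 502 CPM in Gcn2+/- against 512, 585, 584 and 586 CPM in Gcn2+/+, had a log2 change of -0.17 ± 0.0554 (edgeR adjusted p = 0.155). Pdia3, at 205, 199, 212 and 196 CPM in Gcn2+/-, lay below all 4 Gcn2+/+ libraries, with a log2 change of -0.22 ± 0.0828 (edgeR adjusted p = 0.194). Clpp, the mitochondrial matrix protease, was at 26.9, 24.5, 24.6 and 26.3 against 25.6, 20.7, 17.8 and 22.1 CPM, a log2 change of 0.25 ± 0.1012 (edgeR adjusted p = 0.218). Syvn1, the ubiquitin ligase of ER-associated degradation, was at 51.3, 52.5, 48.6 and 55.2 against 49.1, 42.8, 45.5 and 44.3 CPM, a log2 change of 0.19 ± 0.0978 (edgeR adjusted p = 0.315). In Gars mutant mice again no gene was called (0.0% of all genes), with 3 members at an unadjusted p under 0.05 against 10.9% of all genes. Besides Hsp90aa1 (log2 change 0.22 ± 0.0812) and Ern1 (-0.22 ± 0.0866), both at an edgeR adjusted p of 0.435, these included Hspd1 at 0.14 ± 0.0635 (edgeR adjusted p = 0.45). Ern1, the IRE1 gene, was at 17.6, 19.5, 17.1 and 20.5 CPM in Gcn2+/+;Gars mutant libraries and below all of them, at 15.8, 15.6, 15.7 and 16.7 CPM, in Gcn2+/-;Gars mutant libraries. Hsph1 came next by p, with a log2 change of 0.24 ± 0.1443 (edgeR adjusted p = 0.539). For 1 lost copy the member median was -0.01 in wild-type Gars mice, -0.04 under the title number block and 0.03 without the 5 libraries of number 24906. In Gars mutants it was 0.05, 0.04 and 0.09 in the same order, and no member was called in these fits.

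Whether the Gars effect itself differed with Gcn2 was tested as an interaction. Between Gcn2-/- and Gcn2+/+ no member was called, against 0.0115% of all genes (2 genes), and no member had an unadjusted p under 0.05, against 4.93% of all genes. The smallest p-values belonged to Hsp90aa1 (difference of log2 changes 0.21 ± 0.1227), Hspa8 (0.30 ± 0.1744), Dnajc3 (0.28 ± 0.1644) and Pdia3 (0.21 ± 0.1246), each at an edgeR adjusted p of 0.937. The member median of that difference was 0.17 with 31 of 37 above 0, but -0.02 with 17 above 0 under the title number block, and 0.20 with 30 above 0 without the 5 libraries of number 24906. Between Gcn2+/- and Gcn2+/+ the background was larger, 3.7% of all genes (644 genes; 2.45% higher and 1.25% lower), and still no member was called. There 4 members had an unadjusted p under 0.05, against 23.4% of all genes. Hsp90aa1 came nearest to the threshold, with a difference of log2 changes of 0.36 ± 0.1145 (edgeR adjusted p = 0.0716). It passed with DESeq2 (0.36 ± 0.1168, adjusted p = 0.0301) and in 2 of the edgeR fits that left out 1 library, without the first Gcn2+/+;Gars+/+ library (0.41, adjusted p = 0.0281) and without the first Gcn2+/-;Gars mutant library (0.39, adjusted p = 0.0443). With the title number as a block it was 0.32 (adjusted p = 0.443). The Gcn2+/- groups share no title number, so that value is indirect. The member median of this difference was 0.07, 0.05 under the block and 0.05 without the 5 libraries of number 24906. Hspb1 (-1.15 ± 0.4643, adjusted p = 0.136), Hspd1 (0.22 ± 0.0894, adjusted p = 0.141) and Canx (0.18 ± 0.0788, adjusted p = 0.164) followed in the edgeR fit. These comparisons share their Gcn2+/+ libraries, so they are not independent of each other. Female and male libraries differed in no member, against 0.0804% of all genes (14 genes), with no member at an unadjusted p under 0.05 against 2.79% of all genes. The member median of the sex difference was -0.03 with 25 of 37 below 0, and -0.01 with 22 below 0 under the title number block. Without the 5 libraries of number 24906 it turned to 0.07 with 33 above 0, and no member was called. Over these and the other alternatives the median of all genes stayed between -0.0032 and 0.0023.

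The largest differences among the members followed the number that begins the title. An F test of all 8 title numbers together, beside genotype and sex, called 6 of the 37 members, against 3.52% of all genes (613 genes; edgeR, Benjamini-Hochberg over all genes), and 18 members had an unadjusted p under 0.05, against 19.1% of all genes. They were Herpud1 (adjusted p = 0.00582), Hspa1a (0.0198), Hspa1b (0.0278), Hspa5 (0.0326), Xbp1 (0.0442) and Pdia4 (0.045). Without the 5 libraries of number 24906 none was called. Each number with at least 4 libraries was then set against all others. Number 24906 was singled out after its values were seen. Its libraries differed from the other 19 in 7.03% of all genes (1223 genes), and in 19 of the 37 members, all 19 higher, against 4.23% of all genes called higher (737 genes) and 2.79% called lower (486 genes). With genotype in the fit, the estimate rests on the groups that hold libraries of that number. The Gcn2+/+;Gars mutant and Gcn2+/-;Gars mutant groups hold none, and enter only through the sex term and the spread. Numbers 25102 and 25103 called no gene at all (0.0% of genes in both), and number 24905 called 2 genes (0.0115%), neither of them a member. At an unadjusted p under 0.05 number 24905 had 5 members (8.09% of all genes), number 25102 had 3 (10.5%) and number 25103 had 0 (5.89%). Number 24906 had 23 (22.3%).

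By compartment, 12 of 21 ER members, 6 of 11 cytosolic members and 1 of 5 mitochondrial members were higher in the libraries of number 24906. Over all 37 members the median log2 difference was 0.20, against -0.01 over all genes tested. In 5 members, 13.5% of the 37, all 5 libraries of number 24906 lay above all 19 others, against 0.81% of all genes (141 genes). These 5 were Hspa1a, Hspa1b, Hspa5, Sdf2l1 and Pdia4. No member lay below in all 5, against 0.373% of all genes.

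**Figure D2:**
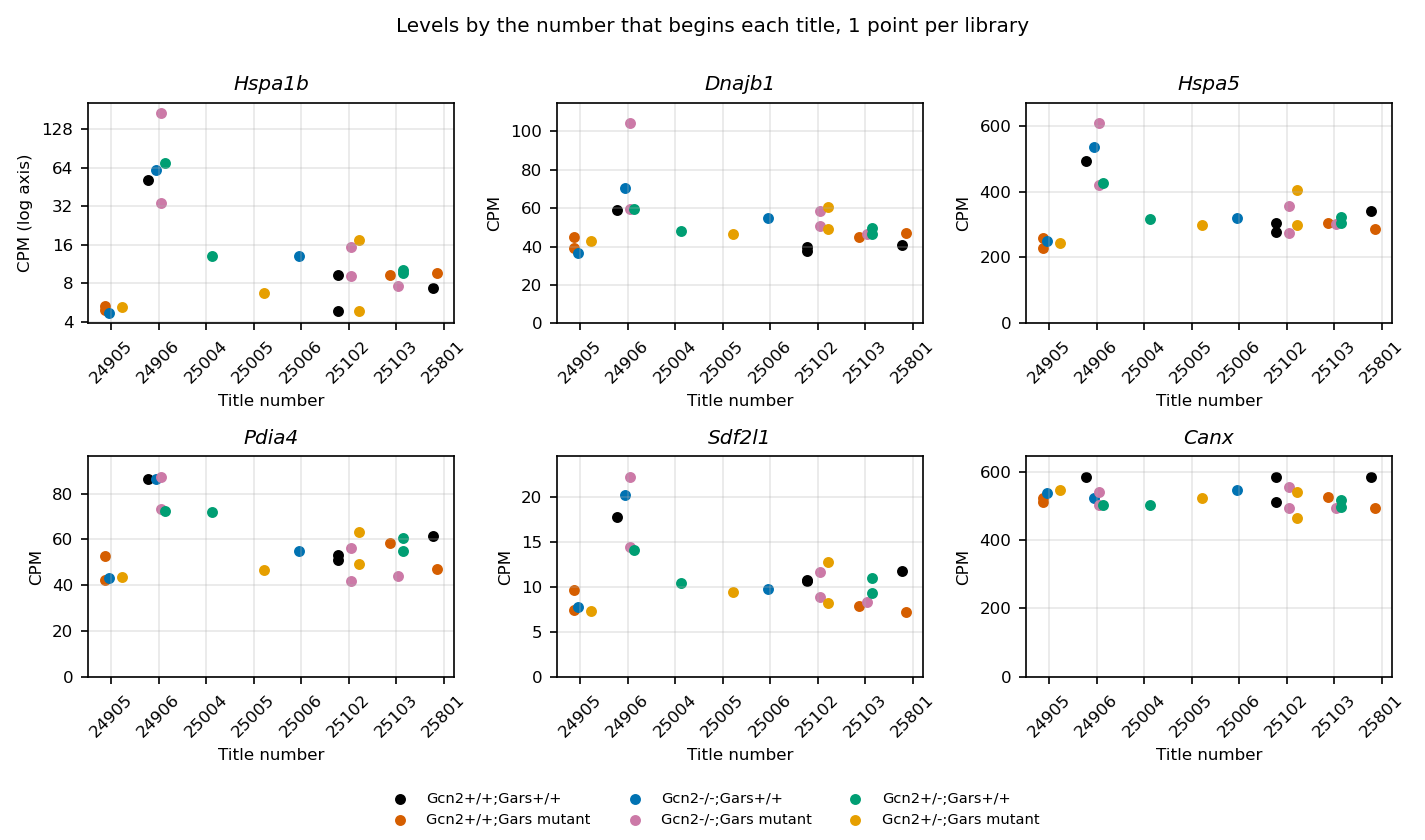
CPM of 6 members (vertical, from 0 except for Hspa1b, which has a log axis) by the number that begins each title (horizontal), 1 point per library, coloured by genotype group. For Hspa1b, Hspa5, Pdia4 and Sdf2l1 every point of number 24906 is above every other point, whatever its genotype, while for Canx the 5 points lie within the range of the rest.

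The inducible Hsp70 genes of the cytosol differed most. Hspa1b was read at 34.1, 51.4, 61.7, 68.9 and 171 CPM in the libraries of number 24906, and at 4.67 (lowest), 9.05 (median) and 17.2 (highest) CPM in the other 19. The ranges were far apart, and the log2 difference was 2.98 ± 0.355 (edgeR adjusted p = 8.26e-05). Hspa1a, its near copy, was at 26.0, 30.2, 41.4, 47.1 and 91.4 CPM against 7.50, 10.5 and 15.9 CPM, a log2 difference of 2.02 ± 0.236 (edgeR adjusted p = 4.81e-05). Since reads may be shared between the pair, their sum was taken too, and it was 60.1 to 263 CPM against 12.4 to 33.0 CPM, again with no overlap. The highest library for both genes was the third Gcn2-/-;Gars mutant library.

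The differences of the other 4 cytosolic members called were smaller. Dnajb1, the J protein that feeds Hsp70, was at 58.8, 59.3, 59.5, 70.4 and 104.5 CPM against 36.8, 46.5 and 60.6 CPM in the others, a log2 difference of 0.55 ± 0.111 (edgeR adjusted p = 0.00494). Only 1 of the 19 other libraries reached into that range. Bag3 was at 46.4, 47.1, 48.4, 54.5 and 56.9 CPM against 27.8, 37.0 and 50.4 CPM, a log2 difference of 0.38 ± 0.0841 (edgeR adjusted p = 0.00889). Hsp90ab1 was at 1517, 1569, 1596, 1649 and 1923 CPM against 1247, 1428 and 1559 CPM, a log2 difference of 0.20 ± 0.0466 (edgeR adjusted p = 0.0108). Hspb1, whose ranges overlapped widely (19.8 to 35.8 against 8.98 to 33.4 CPM), had a log2 difference of 0.68 ± 0.198 and passed narrowly (edgeR adjusted p = 0.0465), and it did so in only 12 of 33 other fits. Hspa8 differed by 0.08 ± 0.0896 and Hsp90aa1 by 0.07 ± 0.0607, and neither passed. Hsph1 (0.26 ± 0.0951, adjusted p = 0.108), Hspb8, the small heat shock protein that pairs with Bag3 (0.10 ± 0.0829), and Hsf1 (0.11 ± 0.0613) did not pass either.

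Among the ER chaperones, Hspa5 was at 419, 428, 494, 537 and 609.7 CPM in the libraries of number 24906 and at 230.3, 303 and 406 CPM (lowest, median, highest) in the others. No library of another number reached the lowest of the 5, and the log2 difference was 0.70 ± 0.111 (edgeR adjusted p = 0.000753). Sdf2l1 was at 14.1, 14.4, 17.7, 20.2 and 22.3 CPM against 7.24, 9.42 and 12.7 CPM, a log2 difference of 0.83 ± 0.133 (edgeR adjusted p = 0.000699), the largest of the ER members. Manf, an ER protein that binds Hspa5 and can be secreted, was at 53.0, 56.6, 57.6, 66.5 and 79.7 CPM against 33.8, 40.6 and 53.1 CPM, a log2 difference of 0.57 ± 0.0999 (edgeR adjusted p = 0.00164). Hyou1, the ER Hsp110, differed less, at 140.0 to 171 against 109 to 147 CPM (log2 difference 0.25 ± 0.055, adjusted p = 0.00932). The other large chaperones of the ER did not pass. Hsp90b1 differed by 0.15 ± 0.0583 (adjusted p = 0.134), Calr by 0.01 ± 0.0832 and Canx by 0.01 ± 0.0432, and all 3 carry the ER stress response element printed above.

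The J proteins and disulfide enzymes divided in the same way. Dnajc3 was at 101, 106, 119, 124 and 132 CPM against 81.1, 95.2 and 108 CPM, a log2 difference of 0.27 ± 0.0584 (edgeR adjusted p = 0.00748), and Dnajb11 differed by 0.22 ± 0.0595 (adjusted p = 0.0305), but Dnajb9 by 0.10 ± 0.0668 (adjusted p = 0.377). Pdia4 was at 72.2, 73.2, 86.3, 86.5 and 87.4 CPM against 41.9, 52.9 and 72.1 CPM, a log2 difference of 0.63 ± 0.112 (edgeR adjusted p = 0.00199). The highest of the other libraries, of number 25004, came within 1 CPM of the lowest of the 5. Creld2, a small ER protein with disulfide activity, was at 11.02, 12.1, 13.8, 16.4 and 16.8 CPM against 7.47, 9.44 and 13.2 CPM, a log2 difference of 0.56 ± 0.112 (edgeR adjusted p = 0.00477). Pdia6, at 94.3 to 127 against 72.6 to 104 CPM, differed by 0.36 ± 0.0822 (adjusted p = 0.0115), while Pdia3 differed by 0.11 ± 0.0598 (adjusted p = 0.283). Of the 8 members with an ER stress response element, 4 were called here (Hspa5, Creld2, Dnajc3 and Pdia6) and 4 were not (Hsp90b1, Calr, Canx and Syvn1). Sdf2l1 and Pdia4, which were called, have no such element in the window searched. Manf and Hyou1, also called, had no promoter to search.

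Among the sensors and the degradation genes, Xbp1, the factor made active by IRE1, was at 72.6, 76.4, 80.5, 81.1 and 98.7 CPM against 43.1, 56.5 and 78.8 CPM, a log2 difference of 0.55 ± 0.102 (edgeR adjusted p = 0.00274). These counts do not separate spliced from unspliced Xbp1. Ern1 (-0.01 ± 0.0671) and Atf6 (-0.04 ± 0.0447), the sensors themselves, did not pass. Herpud1, an ER membrane protein that helps assemble the degradation complex, was at 68.6, 83.8, 84.9, 84.9 and 96.7 CPM against 50.2, 62.4 and 75.3 CPM. Only its lowest library of number 24906 fell within the range of the others, and the log2 difference was 0.46 ± 0.0624 (edgeR adjusted p = 0.00014). Sel1l, the adaptor of Syvn1, differed by 0.17 ± 0.0342 (adjusted p = 0.00496). Syvn1 itself (0.20 ± 0.0622, adjusted p = 0.0624) and Edem1, a lectin that delivers misfolded glycoproteins (0.14 ± 0.0546, adjusted p = 0.14), did not pass. In mitochondria, Lonp1, a matrix protease, passed with a log2 difference of 0.15 ± 0.0397 (adjusted p = 0.0244), at 73.8 to 76.5 CPM within the 64.1 to 85.4 CPM of the others. Hspd1 (0.07 ± 0.0468), Hspe1 (0.06 ± 0.0702), Hspa9 (-0.00 ± 0.0292) and Clpp (-0.07 ± 0.078) did not.

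**Figure D3:**
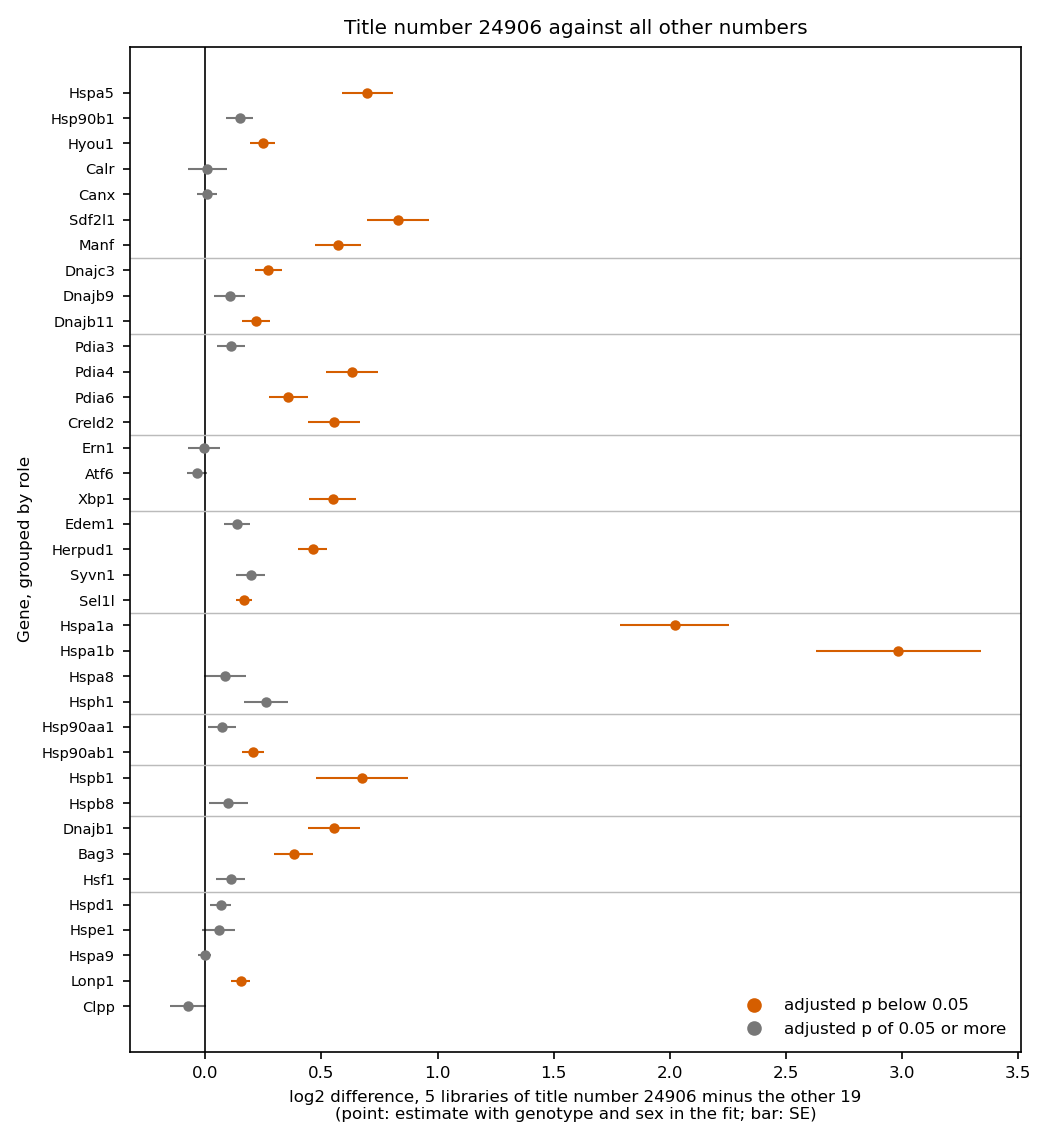
Log2 difference between the 5 libraries of title number 24906 and the other 19 (horizontal) for each member (vertical, grouped by role), with genotype and sex in the fit. Genotype groups without a library of that number enter only through the sex term and the spread. Points are estimates and bars are SE. Orange points, 19 of 37, passed an adjusted p of 0.05 and all lie right of 0, from 0.15 for Lonp1 to 2.98 for Hspa1b.

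Depth and RNA composition were compared between the same sets. The 5 libraries of number 24906 held 19.7 to 27.7 M reads against 20.1 to 32.4 M reads, and mitochondrial transcripts made up 5.84% to 7.16% of counts against 6.01% to 8.79%. Summed microglia markers were 257 to 342 CPM against 282 to 593 CPM, with 1 of 8 called lower. Of 8 astrocyte markers 2 were called higher and 1 lower, with sums of 7513 to 8302 against 7192 to 9401 CPM, and of 8 oligodendrocyte markers 2 were called lower, with sums of 28586 to 31954 against 22358 to 35720 CPM. No neuron, motor neuron or Schwann marker was called. The part of these differences in the members' values was not tested. Number 24906 holds both sexes (3 male, 2 female), 3 Gcn2 genotypes and both Gars genotypes. What it marks is not given, so a shared litter, handling or processing step cannot be told apart.

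The genotype values moved with the way the title number was treated. With the title number as a block, the member median of the Gars effect in Gcn2+/+ mice went from -0.12 to 0.03 and the members below 0 from 27 to 16. For Gcn2 loss in Gars mutant mice the median went from 0.15 to 0.02 and the members above 0 from 33 to 19. Hspa1b shows it most: its log2 change with Gcn2 loss in Gars mutants was 2.65 ± 1.1711 without the title number and 0.25 ± 0.6242 with it. Hspa5 went from 0.54 ± 0.2542 to 0.06 ± 0.1613 and Sdf2l1 from 0.67 ± 0.2976 to 0.12 ± 0.2398. Leaving out the 5 libraries instead gave Hspa5 0.30 ± 0.1246, Sdf2l1 0.31 ± 0.1631 and Hspa1b 0.82 ± 0.404 in that comparison, with a member median of 0.12 and 30 of 37 members above 0. None of these passed in edgeR (adjusted p between 0.526 and 0.934 for these 3 genes in both alternatives).

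**Figure D4:**
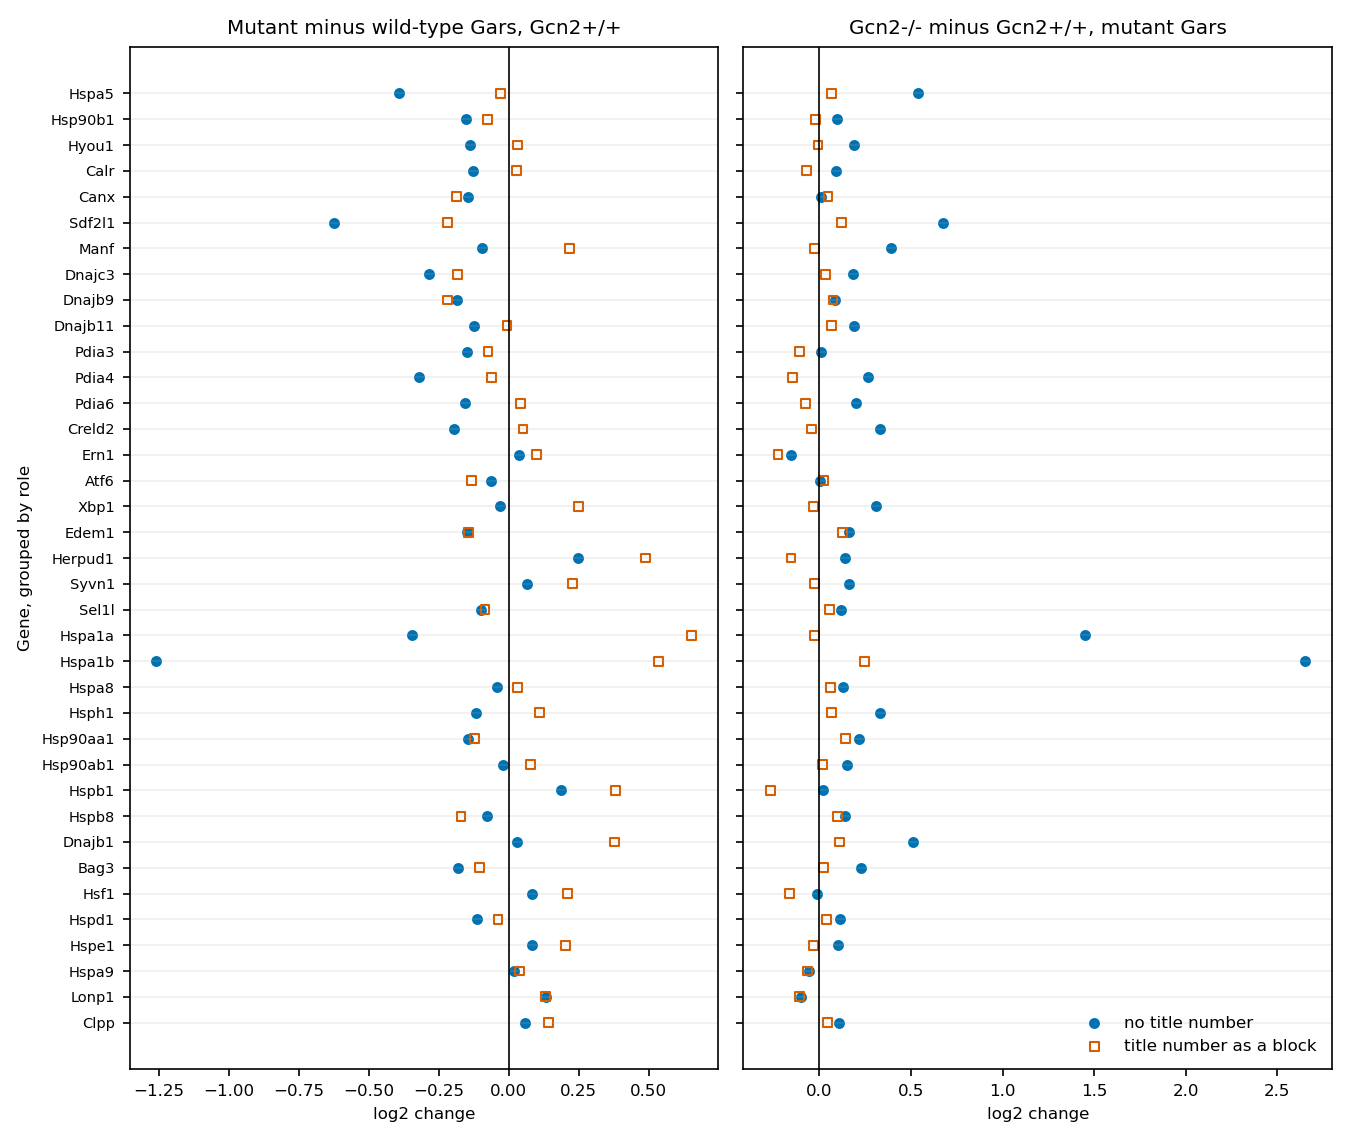
Log2 change of each member (vertical) for mutant against wild-type Gars in Gcn2+/+ mice (left) and for Gcn2-/- against Gcn2+/+ in Gars mutants (right). Filled points are from the fit without the title number and open squares from the fit with it as a block. The squares lie nearer to 0 for Hspa5, Sdf2l1 and Hspa1b in both panels, while Herpud1 moves away from 0 on the left, from 0.25 to 0.49.

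Herpud1 was the exception among the members, since it was called in a genotype comparison once the title number was taken into account. It was not among the members with the smallest p there, and was taken up after these calls were seen. Among 38 alternatives for the Gars effect in Gcn2+/+ mice it was called in 2. In Gcn2+/+;Gars+/+ libraries it stood at 57.9, 50.2, 68.6 and 53.8 CPM and in Gcn2+/+;Gars mutant libraries at 62.4, 75.3, 64.1 and 68.8 CPM. The wild-type library at 68.6 CPM is of number 24906, and the other 3 lie below all 4 mutant libraries. Without the title number the log2 change was 0.25 ± 0.1675 (edgeR adjusted p = 0.474). With the title number as a block it was 0.49 ± 0.0862 (edgeR adjusted p = 0.0242), and with a single term for number 24906 it was 0.37 ± 0.0875 (adjusted p = 0.0466). With the 5 libraries left out it was 0.30 ± 0.0905 (adjusted p = 0.192). The estimate was above 0 in all of these fits, but its call depended on how the title number was treated. Only number 25801 holds both groups, with 1 library each, at 53.8 CPM (wild type) and 75.3 CPM (mutant). That mutant library also held more Schwann cell and nerve root markers (1377 against 178 CPM), meningeal markers (381 against 101.4 CPM) and skeletal muscle markers (72.4 against 1.07 CPM). The mutant library at 68.8 CPM is the one with Schwann markers at 3082 CPM. Without these 2 libraries, and without the title number, the log2 change of Herpud1 was 0.14 ± 0.2008 (edgeR adjusted p = 0.805), and with a Schwann marker score in the fit it was 0.28 ± 0.1936 (adjusted p = 0.527). Their part in the value under the block was not tested. The term for number 24906 was added after the values were seen.

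In mice without Gcn2, Herpud1 was at 84.9, 50.3 and 57.3 CPM with wild-type Gars and at 60.8, 64.1, 96.7, 68.6 and 84.9 CPM with mutant Gars. With 1 Gcn2 copy it was at 62.2, 70.5, 64.2 and 83.8 CPM with wild-type and at 73.3, 62.0, 70.5 and 60.4 CPM with mutant Gars. The libraries above 80 CPM were all of number 24906. Outside that number the mutant libraries lay above the 2 wild-type ones in Gcn2-/- mice, while the groups overlapped in Gcn2+/- mice. Under the block the Gars effect was 0.11 ± 0.0872 in Gcn2-/- mice (edgeR adjusted p = 1.0) and 0.12 ± 0.0983 in Gcn2+/- mice (adjusted p = 0.852). The value for Gcn2+/- mice is indirect, since their 2 Gars groups share no title number. The difference from the Gcn2+/+ effect was -0.38 ± 0.1317 for Gcn2-/- (edgeR adjusted p = 0.664) and -0.37 ± 0.1386 for Gcn2+/- (adjusted p = 0.425), and neither passed. A difference of the Gars effect on Herpud1 with Gcn2 was therefore not shown. Motor neuron markers summed to 2969 to 3335 CPM in Gcn2+/+;Gars+/+ and to 1883 to 2260 CPM in Gcn2+/+;Gars mutant libraries. Their part in the Herpud1 values was not tested.

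**Figure D5:**
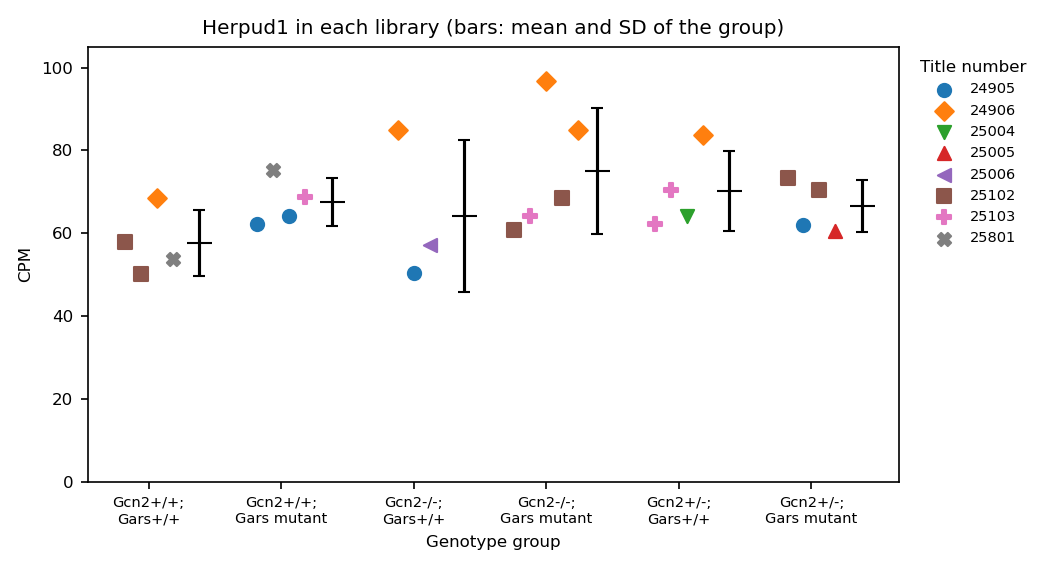
CPM of Herpud1 (vertical, from 0) in each library by genotype group (horizontal), with marker shape and colour giving the title number; bars to the right of each group are its mean and SD. The orange diamonds (number 24906) are the highest point in 4 groups, and without the 1 at 68.6 CPM the Gcn2+/+;Gars+/+ libraries lie below the Gcn2+/+;Gars mutant libraries.

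Other genes of the same pathways, from lists chosen by function, give the members their setting. Their counts stand beside 7.03% of all genes called in the libraries of number 24906, 4.23% higher. There, 1 of 38 other ER stress and folding genes was called, Ddit3, the stress factor CHOP, with a log2 difference of 0.29 ± 0.0719 (edgeR adjusted p = 0.0169). Of 20 other genes of ER-associated degradation, 2 were called, Derl3 at 0.96 ± 0.2492 (adjusted p = 0.0239) and Selenos at 0.18 ± 0.0531 (adjusted p = 0.0419), both of which act in moving proteins out of the ER. Of 43 other cytosolic chaperones tested, 5 were called, all higher. Fkbp5, a partner of Hsp90 at steroid receptors and itself a known target of glucocorticoids, had the largest log2 difference, 0.85 ± 0.134 (adjusted p = 0.000719), and the others were Hspa2, Dnajb4, Ahsa2 and Dnaja4 at 0.22 to 0.41. Of 20 other mitochondrial genes 1 was called, Spg7 at 0.16 ± 0.0446 (adjusted p = 0.0306).

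In the interaction of the Gars effect between Gcn2+/- and Gcn2+/+, the same lists held 4 of 38 called ER folding genes (3 higher, 1 lower), 6 of 43 cytosolic chaperones, all higher, 1 of 20 mitochondrial genes and 0 of 20 genes of ER-associated degradation, beside the background of 3.7% given above. Among the cytosolic genes were Chordc1 (difference of log2 changes 0.73), Hsf2, the second heat shock factor (0.48), St13 (0.42), Hspa4l (0.40) and Dnaja2 (0.35). Of 10 Schwann cell markers 8 were lower in the same test. No gene of any kind was called there with the title number as a block, with the Schwann marker score in the fit, or without the 5 libraries of number 24906. In the remaining genotype comparisons no gene of these 4 lists was called.

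Hspa5 and its ER partners varied together from library to library, while other pairs did so less uniformly. The relation was tested for 15 pairs over the 19 libraries that are not of number 24906, since those 5 form a separate set (permutation test with 100000 resamples, two-sided, Benjamini-Hochberg over the 15). Hspa5 followed each of its 7 ER partners: Pearson's r was 0.84 with Hyou1 (Spearman's rho 0.80), 0.79 with Creld2 (0.76), 0.78 with Manf (0.75), 0.77 with Sdf2l1 (0.77), 0.76 with Dnajb11 (0.68), 0.76 with Hsp90b1 (0.72) and 0.74 with Pdia4 (0.87). The adjusted permutation p for r lay between 0.00015 and 0.00064, and for rho between 0.00015 and 0.0028. Without the 2 libraries farthest from the Hspa5 median, r stayed between 0.55 with Creld2 and 0.80 with Hyou1, with adjusted permutation p up to 0.0402. Over all 24 libraries r was 0.78 to 0.94.

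The cytosolic pairs were less uniform. Hsph1 followed Hsp90aa1 (r = 0.73, rho = 0.80, adjusted permutation p = 0.0006 and 0.0004) and Dnajb1 (r = 0.65, rho = 0.56, adjusted permutation p = 0.0044 and 0.0224), though the latter fell to 0.39 without the 2 farthest libraries and so rests on them. With Hspa1b r was 0.41 and rho 0.27 (adjusted permutation p = 0.107 and 0.293), which did not pass. Over all 24 libraries that pair passed, with r = 0.66 and rho = 0.48 (adjusted permutation p = 0.001 and 0.024), and the set of 19 was chosen after the values were seen. Over the 19, r and rho were, with Hspa8, 0.23 and 0.13, with Bag3 -0.15 and -0.12 and with Hspb1 -0.28 and -0.29, none of which passed. In residuals from group and sex over all 24 libraries, r was 0.60 with Bag3 and 0.56 with Hspb1 (adjusted permutation p = 0.0033 and 0.0054). There rho was 0.46 and 0.40 (adjusted permutation p = 0.0298 and 0.0585), and r with Hspa8 was 0.07. The mitochondrial chaperonin subunits Hspd1 and Hspe1, which share the promoter stretch shown above, had r = 0.50 and rho = 0.43 (adjusted permutation p = 0.0435 and 0.0995). Without the 2 farthest libraries their r was 0.405 and no longer passed (adjusted permutation p = 0.16). Hspd1 and Hspa9 had r = 0.36 and rho = 0.40 (adjusted permutation p = 0.165 and 0.122).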

How the data were processed

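Whole spinal cord RNA was sequenced as stranded, polyadenylated libraries of paired 75-base reads, per the labels' protocols. RSEM 1.2.12 and Bowtie2 2.2.0 are named in the submitters' processing notes. For these files a genome build and an annotation were not given in the sources used. The authors deposited expected counts and TPM per gene. Symbols came from GENCODE M21 (GRCm38), which matched 37607 of 38924 identifiers. Unmatched genes hold 0.261% of counts.

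Expected counts were rounded and tested with edgeR 4.0.16 (limma 3.58.1, R 4.3.3): TMM scaling, a filter on low counts by group, 1 robust quasi-likelihood fit of 6 genotype groups and sex over 24 libraries (17 residual degrees of freedom), and Benjamini-Hochberg adjustment over 17409 genes with a threshold of 0.05. SE was taken from the log2 change and its F. CPM uses TMM library sizes. The fit was tested on simulated data. Alternatives included DESeq2 1.42.0, other scalings, no filter, no sex term, separate groups, a Schwann marker score, the title number as a block and leaving out each library. The first number of the title is shared by libraries of different groups. It was not taken as a pairing, since the correlation of deviations was not above 0.1 in every pair of libraries sharing a number.

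The 37 members and all gene lists were chosen with earlier results of these data known. Members named in each comparison were those called, otherwise up to 4 by smallest p. Herpud1 in the Gars comparison of Gcn2+/+ mice was added outside this rule, after its values were seen.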

Additional observations from a re-analysis of the deposited data

Results flagged for a closer look

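Dixon's test at the 95% level was applied within each group of 4 or 5 libraries to 33 members, 165 gene and group combinations in all. It set 21 values apart from their group, each of 1 gene in 1 library, at a level of about 1 in 20. Of the 21, 15 were values in libraries of title number 24906, all of them high. The 33 members include those called because they were high in that number, and genes of the same library are not independent. These counts are therefore no separate support for a difference of number 24906.

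The third Gcn2-/-;Gars mutant library, of number 24906, was high for Hspa1b (171.2 CPM against 7.66 to 34.1 in the rest of its group), Hspa1a (91.38 against 10.5 to 26.0), Dnajb1 (104.5 against 46.5 to 59.5), Hsph1 (578.8 against 335 to 405), Hspd1 (250.2 against 201 to 214) and Creld2 (16.76 against 9.11 to 11.02). The third Gcn2+/+;Gars+/+ library, of the same number, was high for Hspa1b (51.36 CPM against 4.85 to 9.21), Hspa1a (30.23 against 7.50 to 9.66), Dnajb1 (58.79 against 37.8 to 40.9), Sdf2l1 (17.74 against 10.6 to 11.8) and Hyou1 (149.2 against 130.9 to 131.9). The fourth Gcn2+/-;Gars+/+ library, also of that number, was high for Hspa1b (68.87 CPM against 9.53 to 13.2), Hspa1a (47.12 against 9.67 to 14.6), Hspa5 (428.1 against 304 to 323) and Manf (57.56 against 44.2 to 45.1).

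The other 6 values were in libraries of other numbers. The third Gcn2+/-;Gars mutant library, of number 25102, was high for Hspa1b (17.24 CPM against 4.84 to 6.65), Xbp1 (78.83 against 52.2 to 56.5) and Creld2 (13.21 against 8.93 to 9.22). The first library of the same group was low for Dnajb9 (39.73 CPM against 50.4 to 52.4). The first Gcn2+/+;Gars+/+ library was low for Canx (512.1 CPM against 584 to 586), and the third Gcn2+/-;Gars+/+ library was low for Sel1l (230.1 CPM against 246 to 247).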

How the results depend on the processing

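No member was called in any genotype comparison except as follows. With the Gars effect in Gcn2+/+ mice, 1 member (Herpud1) was called under the title number block and 1 under a term for number 24906. For the interaction of Gcn2+/- and Gcn2+/+, DESeq2 called 1 (Hsp90aa1), and leaving out each library gave 0 to 2. For 1 lost Gcn2 copy in wild-type Gars mice it gave 0 to 1, which was Canx (-0.22, edgeR adjusted p = 0.0363) without the first Gcn2+/+;Gars+/+ library. Canx also passed in that interaction (0.24, adjusted p = 0.047) without the first Gcn2+/-;Gars mutant library. Without the 5 libraries of number 24906, counts of members at an unadjusted edgeR p under 0.05 moved. They went from 2 to 10 for the Gars effect in Gcn2+/+ mice and from 1 to 10 in Gcn2-/- mice. For the difference of these effects they went from 0 to 10 and for Gcn2 loss with wild-type Gars from 1 to 8. They fell from 6 to 4 for Gcn2 loss with mutant Gars and rose from 0 to 8 for sex. Shares of all genes in these fits are not given, so these counts cannot be set against a background and show nothing particular to the members.

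For number 24906 against the others, members called were 19, and 12 to 19 with each library left out, the 12 without the first Gcn2-/-;Gars+/+ library. DESeq2 called 20, and 1 (Herpud1) was called among the libraries with the earlier title numbers. Herpud1 was called in all 33 alternatives. The F test of all title numbers called 6 members, 1 to 7 with each library left out, 15 with DESeq2, 3 with a Schwann score, 1 in the 4 genotypes without Gcn2+/- and 0 without number 24906.

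Counts of genes called over all genes moved more. Over the other alternatives they ran from 11 to 648 for the Gars effect in Gcn2+/+ mice (110 in the report) and from 47 to 600 with each library left out. The ranges were 4 to 191 and 18 to 66 in Gcn2+/- mice (31), 1 to 27 and 1 to 3 in Gcn2-/- mice (2), 0 to 1696 and 0 to 1784 for the Gcn2+/- interaction (644), and 0 to 35 and 0 to 6 for the Gcn2-/- interaction (2). They were 21 to 249 and 47 to 110 for Gcn2 loss in Gars mutants (86), 4 to 38 and 3 to 10 with wild-type Gars (5), 0 to 459 and 0 to 664 for 1 lost copy with wild-type Gars (0), 0 to 16 and 0 to 1 with mutant Gars (0), and 8 to 22 and 10 to 16 for sex (14). For number 24906 they were 76 to 1737 and 610 to 1345 (1223), and for all title numbers together 42 to 1864 and 226 to 796 (613).

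The replicate block used the title number, which is not known to pair libraries. Deviations of 38 pairs sharing a number correlated with a median r of 0.172 (-0.233 to 0.39), against -0.064 in 238 other pairs. Besides Herpud1 it changed no call of a member.

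Signs were followed over the alternatives only for members named in each comparison and for the pairs. Other members changed sign as well. Under the title number block, the Gars effect in Gcn2+/+ mice went from -1.26 to 0.54 for Hspa1b and from -0.09 to 0.22 for Manf. Among the estimates followed, those that changed sign were the sex difference of Hspe1 (0.048 without number 24906) and 3 pairs. Hsph1 and Hspa8 had r = -0.080 without the 2 farthest libraries. Hsph1 and Hspb1 had r = -0.25 without the 2 farthest, -0.38 in the later title numbers, -0.28 without number 24906 and -0.51 without both. Hsph1 and Bag3 had r = -0.047, -0.15 and -0.13 in the latter 3.

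Groups of 3 to 5 libraries limit precision: for Hspa1b and Sdf2l1 the SE of a genotype effect reached 1.17 and 0.318. The scaling moved the median gene by at most 0.0114 on the log2 scale.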

Other observations

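Outside the chaperones, the genes with the smallest adjusted p for title number 24906 (mean CPM of at least 1) were named by rank and are given as values. Plin4, a lipid droplet coat protein, was higher by 2.87 ± 0.2411 (log2 difference, edgeR adjusted p = 3.97e-06). Pnpla2, the adipose triglyceride lipase, was higher by 1.08 ± 0.0785 (adjusted p = 1.23e-07), the kinase gene Sgk3 by 1.04 ± 0.0742 (1.23e-07), Slc24a4 by 0.83 ± 0.0803 (4.87e-06) and the astrocyte connexin Gjb6 by 0.66 ± 0.0568 (1.77e-06). Lower by the same rule were Serinc5 (-0.76 ± 0.0961), Tubb2b (-0.76 ± 0.0962), the netrin receptor Unc5b (-0.58 ± 0.0663), the sterol sensor Insig1 (-0.55 ± 0.0588) and Snx30 (-0.25 ± 0.0329), with adjusted p between 1.19e-05 and 8.83e-05.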
